A study of Homo sapiens with 11 samples.

Results

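Ribosome biogenesis and RNA polymerase I genes were followed through EGF withdrawal and siRNA treatment in hTert-HME1 cells, human mammary epithelial cells immortalized with telomerase. The set held 40 genes, chosen by name for a known part in making ribosomal RNA or assembling ribosomal subunits. The choice was made with earlier results of these data known. Of the 40 genes, 39 were in the table and reached 10 on a linear scale in at least 2 libraries. In all, 17945 of 40460 genes did so. No row was matched to BOP1, which was not analysed here. One normalized log2 value per gene was deposited for each of 11 total RNA libraries, made after removal of ribosomal RNA, so the ribosomal RNA itself was not measured.

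The 4 groups were cells given control siRNA in medium with EGF (epidermal growth factor, 3 libraries), control siRNA without EGF (2 libraries), BRCA2 siRNA with EGF (3 libraries) and BRCA2 siRNA without EGF (3 libraries). All were hTert-HME1 cells at passage 6 grown in mammary epithelial growth medium and transfected with RNAiMAX, with 1 siRNA for each target (control-2 or BRCA2-1). Replicates were lettered A, B and C and called biological in the labels, and the group given control siRNA without EGF had no replicate B. All 11 libraries came from 1 cell line, and the length of the withdrawal is not given in the sources used here. As no read count accompanied the values, the sequencing depth was unknown.

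Ribosomes are built in the nucleolus. RNA polymerase I transcribes a long precursor there, small nucleolar ribonucleoproteins (snoRNPs) modify it, and a chain of assembly factors cuts, folds and packs it with ribosomal proteins into a small and a large subunit. Growth factor signalling is known to raise the output of this pathway, and the transcription factor MYC, which binds the E-box CACGTG together with its partner MAX, is known to act on many of its genes.

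The E-box was therefore looked for in the promoters of these genes. RefSeq promoter windows of the GRCh38.p14 build (250 bases before to 50 bases after an annotated start) were found for 33 of the 39 genes. CACGTG, the only motif searched and its own reverse complement, was in 16 of the 33 genes (48.48%), in 28 of 111 other ribosome biogenesis genes (25.23%) and in 1372 of 11420 tested genes with a window (12.01%). Counted by window, the shares were 39.02% of 41 windows, 23.2% of 125 and 8.96% of 16544. In 11 of the 33 genes (33.33%) the letters lay within 30 bases of the start, against 17 of the 111 other pathway genes (15.32%) and 354 of the 11420 genes (3.1%). The stretches below, of 60 bases each, show the letters in capitals. LYAR and UTP14A had the lowest p on EGF withdrawal in their role among genes with the letters wholly before the start, and the others show the position at the start, in PNO1, WDR43, RRP9, GNL3 and PES1, whose level fell on EGF withdrawal, and in FBL and UTP20, which were not called.
LYAR, chr4:4290053-4290112, minus strand: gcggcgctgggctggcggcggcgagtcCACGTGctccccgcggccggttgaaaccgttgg
UTP14A, chrX:129905914-129905973, plus strand: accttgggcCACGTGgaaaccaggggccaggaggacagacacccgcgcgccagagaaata
PNO1, chr2:68157858-68157917, plus strand: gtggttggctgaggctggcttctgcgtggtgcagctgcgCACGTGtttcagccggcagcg
WDR43, chr2:28894637-28894696, plus strand: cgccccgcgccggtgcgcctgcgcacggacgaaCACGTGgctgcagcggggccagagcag
RRP9, chr3:51941875-51941934, minus strand: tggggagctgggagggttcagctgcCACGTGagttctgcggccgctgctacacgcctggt
GNL3, chr3:52686002-52686061, plus strand: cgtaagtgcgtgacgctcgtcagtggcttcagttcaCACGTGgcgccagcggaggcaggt
PES1, chr22:30591881-30591940, minus strand: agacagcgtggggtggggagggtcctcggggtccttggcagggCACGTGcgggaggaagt
FBL, chr19:39846350-39846409, minus strand: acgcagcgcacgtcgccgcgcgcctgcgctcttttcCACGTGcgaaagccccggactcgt
UTP20, chr12:101280075-101280134, plus strand: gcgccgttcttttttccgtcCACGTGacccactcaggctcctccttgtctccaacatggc
Counted from the start, the letters began at position -64 in LYAR, -241 in UTP14A, -10 in UTP20 and -5 in RRP9. In PNO1, WDR43, GNL3, PES1 and FBL they began at positions 10, 4, 7, 14 and 7, behind the start. A match of letters is a description and no evidence of binding.

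**Figure D1:**
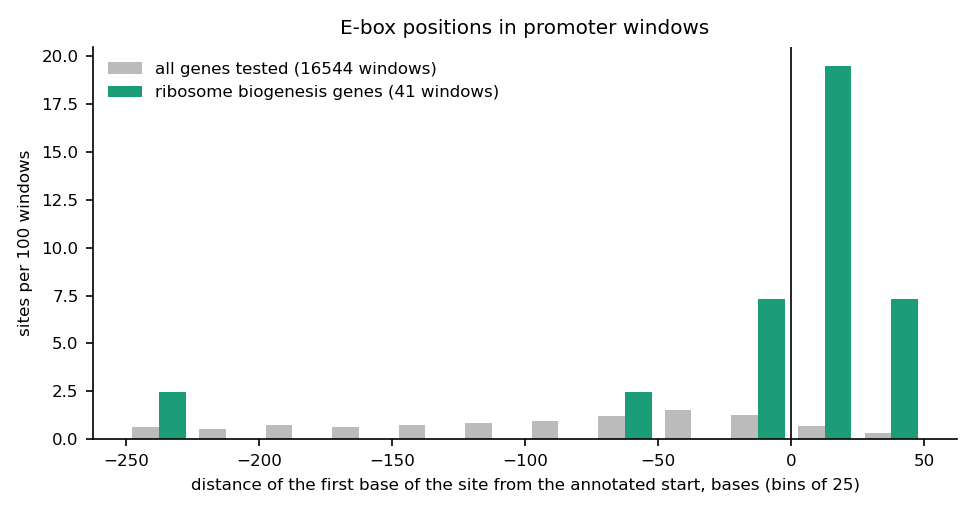
Number of E-boxes (CACGTG) per 100 promoter windows (y axis) in bins of 25 bases by distance from the annotated start (x axis, negative before the start), for 41 windows of ribosome biogenesis genes (green) and 16544 windows of all genes tested (grey). In the 25 bases that begin at the start the value was 19.512 per 100 windows for the ribosome biogenesis genes, from 8 sites, and 0.659 for all genes tested.

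The level of BRCA2 mRNA, the target of the siRNA, did not fall under the siRNA labelled for it. In medium with EGF its log2 values were 12.43, 12.37 and 12.40 in those libraries and 12.45, 12.13 and 12.48 with control siRNA, a difference of 0.05 ± 0.12 (SE, limma adjusted p = 0.999). Without EGF they were 12.48, 12.27 and 12.11 against 11.44 and 11.65, which was 0.74 ± 0.13 higher (limma adjusted p = 0.00397). The labels are used below as given, and every statement on BRCA2 siRNA is about the libraries labelled so. The summed linear level of 10 basal mammary epithelial markers was 497000 to 571000 in the libraries with EGF and 734000 to 1060000 in those without. Fibroblast markers summed to 1700 to 2190 with EGF and 3700 to 9230 without, endothelial markers to 198 to 401 and 286 to 1370, and leukocyte markers to 15.1 to 21.6 and 24.3 to 55.8. Of the 29 markers 26 were in the table, the values of CD3E, CD68 and CDH5 were below 0 in log2, and PTPRC, VWF and COL1A2 did not pass the filter. The basal, fibroblast and leukocyte sums were thus higher in every library without EGF, the last resting on CD14 as its only tested gene. Endothelial sums were higher in both control libraries without EGF but overlapped between media with BRCA2 siRNA (210 to 360 with EGF, 286 to 438 without). Most of the endothelial sum came from KDR, with mean log2 values of 7.77 with EGF and 10.27 without under control siRNA. Single markers went both ways: with control siRNA ITGA6 (-0.40) of the basal list and TEK (-1.13) of the endothelial list fell on withdrawal. The part of these markers in the results below was not tested.

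The first comparison asked what EGF withdrawal did to these genes under control siRNA. Of the 39 genes tested, 33 fell and none rose (limma, Benjamini-Hochberg adjusted p under 0.05 over all 17945 genes). Among all genes tested 26.1% were called lower and 24.7% higher. The median log2 difference was -0.59 over the 39 genes and -0.00 over all genes tested. Both libraries without EGF lay below all 3 libraries with EGF in 35 of the 39 genes, a pattern seen in 33.6% of all genes tested. Most falls were moderate, and only LYAR and PNO1 fell by 2-fold or more. In bulk RNA a lower level in each cell and fewer cells expressing a gene cannot be told apart.

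**Figure D2:**
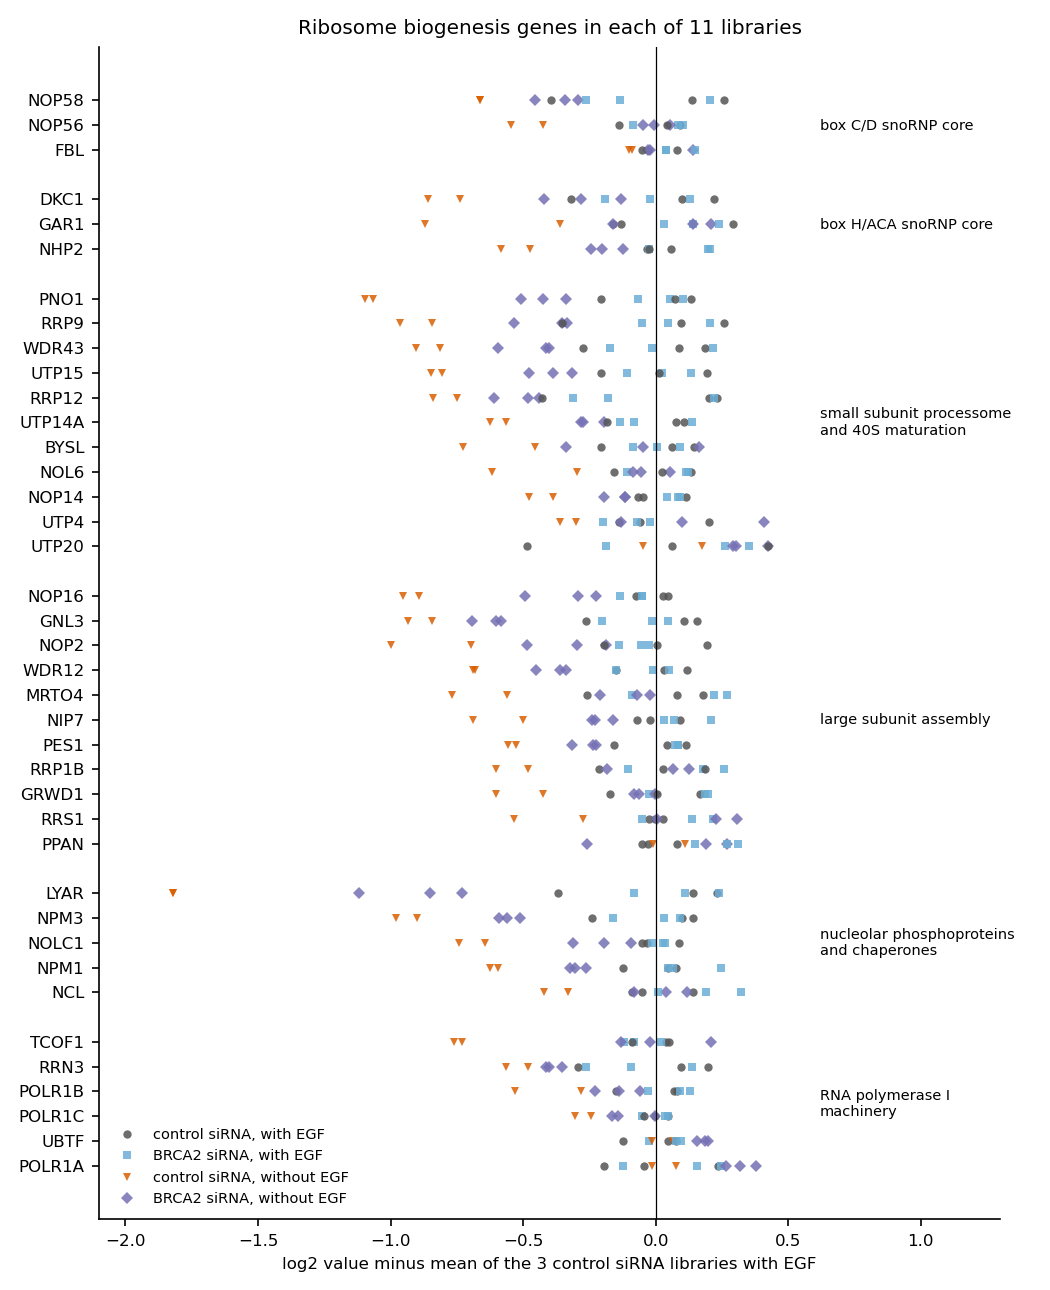
Each of the 39 ribosome biogenesis genes (rows, grouped by role) in each of the 11 libraries, as the log2 value minus the mean of the 3 libraries with control siRNA and EGF (x axis). Orange triangles (control siRNA without EGF) lie to the left of the grey circles in 35 genes, and purple diamonds (BRCA2 siRNA without EGF) lie to their right in 38 genes.

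All 5 nucleolar phosphoproteins and chaperones fell. LYAR, a nucleolar zinc finger protein linked to ribosomal RNA production and cell growth, had log2 values of 12.56, 12.47 and 11.96 with EGF and 10.51 and 10.51 without. The groups were far apart, although replicate C with EGF was the lowest of its group. The difference was -1.82 ± 0.17 (SE), or 3.53-fold lower (limma adjusted p = 2.24e-05), and 127 of the 17945 genes had a lower value. NPM3, a relative of nucleophosmin in the nucleoplasmin family, had log2 values of 11.88, 11.92 and 11.54 with EGF and 10.80 and 10.88 without (-0.94 ± 0.12, limma adjusted p = 9.79e-05). NOLC1, a snoRNP chaperone, went from 14.64, 14.52 and 14.50 to 13.81 and 13.91. NPM1, the nucleophosmin gene, went from 17.35, 17.38 and 17.18 to 16.68 and 16.71. In both genes the groups were apart by more than their own spread, with differences of -0.70 and -0.61 in log2. NCL, encoding nucleolin, fell least in this role (-0.38 ± 0.11, limma adjusted p = 0.0155). The annotation names 45 pseudogenes of NPM1, which can share its reads, so its value is less certain than the others.

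Among the snoRNP core proteins 5 of 6 fell. The box H/ACA particle, which converts uridine to pseudouridine in ribosomal RNA, fell in all 3 of its proteins in the set, and NOP10, its remaining core protein, counted with the rest of the pathway, fell by 0.82. DKC1, its pseudouridine synthase, had log2 values of 13.44, 13.56 and 13.02 with EGF and 12.48 and 12.60 without (-0.80 ± 0.15, limma adjusted p = 0.00134). GAR1 and NHP2, its structural proteins, fell by 0.61 and 0.53 in log2. In the box C/D particle, which methylates ribosomal RNA, the scaffold proteins NOP58 (-0.66) and NOP56 (-0.48) fell. FBL, the methyltransferase of that particle, stood out by its small difference: its log2 values were 11.50, 11.61 and 11.48 with EGF and 11.43 and 11.44 without. These groups did not overlap, but the difference of -0.09 ± 0.08 was not called (limma adjusted p = 0.378).

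Small subunit factors fell in 9 of 11 cases. PNO1, which holds the maturing small subunit RNA until its last cut, had log2 values of 10.92, 10.86 and 10.58 with EGF and 9.72 and 9.69 without. The 2 values without EGF were almost equal and lay well below the lowest value with EGF. PNO1 was 2.11-fold lower (-1.08 ± 0.11, limma adjusted p = 3.15e-05). RRP9, a protein of the U3 snoRNP, went from 10.31, 10.47 and 9.86 to 9.37 and 9.25 (-0.90 ± 0.16). In the small subunit processome WDR43 (-0.86), UTP15 (-0.83), UTP14A (-0.59), NOL6 (-0.46) and NOP14 (-0.43) fell. RRP12, an export factor of the pre-ribosome, fell by 0.80, and BYSL, which acts in late small subunit maturation, fell by 0.59. The exceptions were UTP4, with a difference of -0.33 ± 0.15 (limma adjusted p = 0.0803), and UTP20. UTP20, a large scaffold protein of the processome, had log2 values of 12.68, 12.13 and 13.04 with EGF and 12.57 and 12.79 without. Its replicates with EGF spread over more than its group difference of 0.06 ± 0.23.

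Large subunit factors fell in 10 of the 11 genes tested. NOP16 had log2 values of 10.46, 10.44 and 10.34 with EGF and 9.52 and 9.46 without (-0.93 ± 0.10, limma adjusted p = 3.37e-05). GNL3, the nucleolar GTPase nucleostemin, went from 13.99, 13.94 and 13.57 to 12.90 and 12.99 (-0.89 ± 0.12). Neither gene had a library without EGF near its group with EGF. The RNA methyltransferase NOP2 fell by 0.84, and PES1 and WDR12, partners of BOP1 in the PeBoW complex, fell by 0.54 and 0.69. The other calls were MRTO4 (-0.66), which holds the place of a ribosomal stalk protein, the RNA processing factors NIP7 (-0.60) and RRP1B (-0.54), GRWD1 (-0.51), a chaperone of a ribosomal protein, and RRS1 (-0.40), which helps to load the 5S particle. PPAN, also a large subunit factor, was the exception, with log2 values of 5.40, 5.51 and 5.38 with EGF and 5.42 and 5.54 without (0.05 ± 0.17, limma adjusted p = 0.813). Its gene shares its strand and part of its span with P2RY11 and with the readthrough PPAN-P2RY11, so reads of the 3 may have been divided among them.

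RNA polymerase I genes split. TCOF1, encoding treacle, a nucleolar scaffold of the polymerase, had log2 values of 12.66, 12.53 and 12.67 with EGF and 11.86 and 11.89 without (-0.74 ± 0.10, limma adjusted p = 0.000159). RRN3, the initiation factor that recruits the polymerase, went from 12.15, 12.05 and 11.66 to 11.39 and 11.47 (-0.52 ± 0.14). The second largest subunit, POLR1B, fell by 0.41, and POLR1C, a subunit shared with RNA polymerase III, by 0.27. POLR1A, the largest subunit, had values of 12.14, 11.99 and 12.42 with EGF and 12.17 and 12.26 without (0.03 ± 0.13, limma adjusted p = 0.876). UBTF, which binds the ribosomal DNA promoter, had values of 12.11, 12.14 and 11.94 with EGF and 12.13 and 12.05 without (0.03 ± 0.08, limma adjusted p = 0.805). Both pairs of groups overlapped. After quantile normalization the UBTF difference was 0.25 and was called higher.

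**Figure D3:**
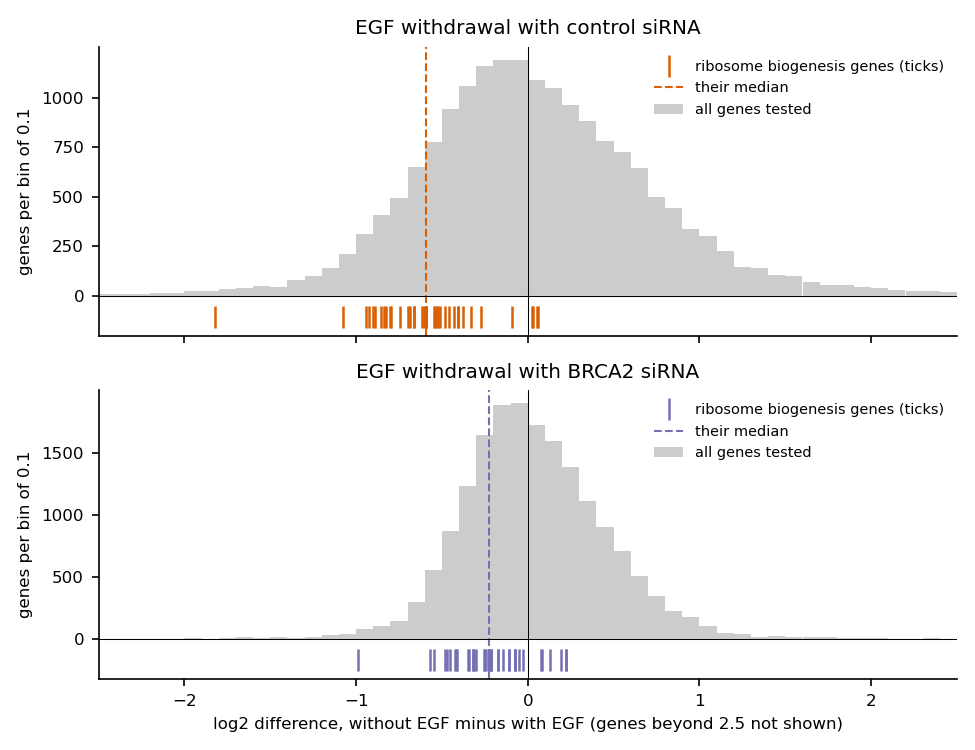
Log2 difference between libraries without and with EGF (x axis), for control siRNA (upper) and BRCA2 siRNA (lower). Grey bars count all 17945 genes tested in bins of 0.1, ticks mark the 39 ribosome biogenesis genes, and the dashed line is their median, -0.59 in the upper panel and -0.23 in the lower, with genes beyond 2.5 in either direction not drawn.

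The rest of the pathway moved in the same direction. Of 128 other ribosome biogenesis genes tested, 90 fell and 5 rose, with a median of -0.50. By role the falls were 8 of 10 snoRNP proteins and assembly factors, 31 of 46 small subunit factors, 37 of 51 large subunit factors, 10 of 16 RNA polymerase I genes and 4 of 5 genes of the 5S particle or ribosomal protein chaperones. RUVBL1, an ATPase that helps assemble snoRNPs, had log2 values of 13.18, 13.22 and 12.83 with EGF and 11.88 and 11.92 without (-1.18 ± 0.12). EBNA1BP2 (-1.15), a large subunit factor, DIMT1 (-0.83), a small subunit RNA methyltransferase, POLR1F (-0.70), a polymerase I subunit, and PDCD2L (-1.32), related to a chaperone of a ribosomal protein, also fell. The 5 genes that rose, named here after their values were seen, were the RNA helicases DDX47 (0.74) and DHX37 (0.45), the large subunit factor NOP53 (0.67), the polymerase I initiation factor TAF1C (0.43) and the large subunit ATPase MDN1 (0.40).

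MYC itself did not pass the test. Its log2 values were 14.17, 14.23 and 13.77 with EGF and 13.87 and 13.95 without, groups that overlapped (-0.15 ± 0.13, limma adjusted p = 0.382). Among its network MAX fell by 0.42, while MXI1 (0.94), MNT (0.65) and MXD4 (0.42), which compete with MYC for MAX or its sites, rose. MXD1, a further antagonist, had scattered log2 values of 11.88, 12.19 and 10.11 with EGF and 10.03 and 10.14 without, and its difference of -1.31 ± 0.58, the largest of the list, was not called (limma adjusted p = 0.0794). Split by the E-box, the 16 genes with CACGTG had a median of -0.60 with 13 called lower, and the 17 genes with a window but without the letters had a median of -0.52 with 14 called lower. No test of that difference was made.

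The call counts changed with the libraries used. Without replicate A of the control libraries lacking EGF, 23 genes were called lower, beside 17.7% of all genes tested in that fit. With replicates B and C alone, where 1 library is left without EGF, 6 genes were, beside 5.03% of all genes, with a median of -0.47. Within replicate A the median difference was -0.76 with 36 of 39 genes lower, and within replicate C it was -0.44 with 37 of 39 lower. Of all genes tested, 50.7% and 50.8% were lower within these replicates. Among the 11742 genes with a linear value of 100 or more in at least 3 libraries, the median was -0.17 and 37.1% were called lower, a higher background than over all genes tested, and 33 of 38 ribosome biogenesis genes were called lower in that fit.

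The second comparison was EGF withdrawal in the libraries labelled BRCA2 siRNA. Here 14 of the 39 genes fell and none rose, against 13.8% of all genes tested called lower and 13.4% higher. The median log2 difference was -0.23 over the 39 genes and 0.00 over all genes tested, and after quantile normalization it was -0.11 over the 39 genes. All 3 libraries without EGF lay below all 3 with EGF in 21 genes (24.4% of all genes tested), and above them in POLR1A and UBTF (22.2% of all genes tested). The 14 genes were among the 33 that fell with control siRNA. None fell by 2-fold or more. Of the 39 genes, 38 were among the 11742 more highly expressed genes defined above. In the fit of those 11742 genes 20.8% were called lower and 12.7% higher, with a median of -0.09. That background of falls was higher than over all genes tested.

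LYAR again had the largest difference of the set, with log2 values of 12.44, 12.57 and 12.25 with EGF and 11.60, 11.48 and 11.21 without (-0.99 ± 0.15, limma adjusted p = 0.00188). GNL3 went from 13.82, 13.88 and 13.63 to 13.23, 13.25 and 13.14 (-0.57 ± 0.11, limma adjusted p = 0.0049). In both genes every library without EGF was below every library with it. NPM3 (-0.54), WDR43 (-0.48), RRP9 (-0.47), PNO1 (-0.45), NPM1 (-0.42) and UTP15 (-0.41) followed. The remaining calls were WDR12 (-0.35), PES1 (-0.34), NHP2 (-0.32), NIP7 (-0.31), NOP16 (-0.25) and NOP14 (-0.22).

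By role, 5 of 11 small subunit factors, 5 of 11 large subunit factors, 3 of 5 nucleolar phosphoproteins and chaperones and 1 of 3 box H/ACA proteins fell. None of the 3 box C/D proteins and none of the 6 RNA polymerase I genes was called. TCOF1 had log2 values of 12.54, 12.50 and 12.64 with EGF and 12.83, 12.60 and 12.49 without, groups that overlapped (0.08 ± 0.09, limma adjusted p = 0.55). NOP56 likewise overlapped, with 13.65, 13.48 and 13.67 with EGF and 13.62, 13.56 and 13.52 without. For UBTF the difference was 0.13, and 0.25 and called higher after quantile normalization. In the rest of the pathway 53 of 128 genes fell and 3 rose, with a median of -0.24.

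The number called lower depended on the libraries: it was 6 without replicate A of the BRCA2 siRNA libraries with EGF, 9 without replicate B and 6 without replicate C of those lacking EGF, where 6.16%, 7.65% and 7.11% of all genes tested were called lower. It was 0 with replicates B and C alone, where 14 of all genes tested were called lower.

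**Figure D4:**
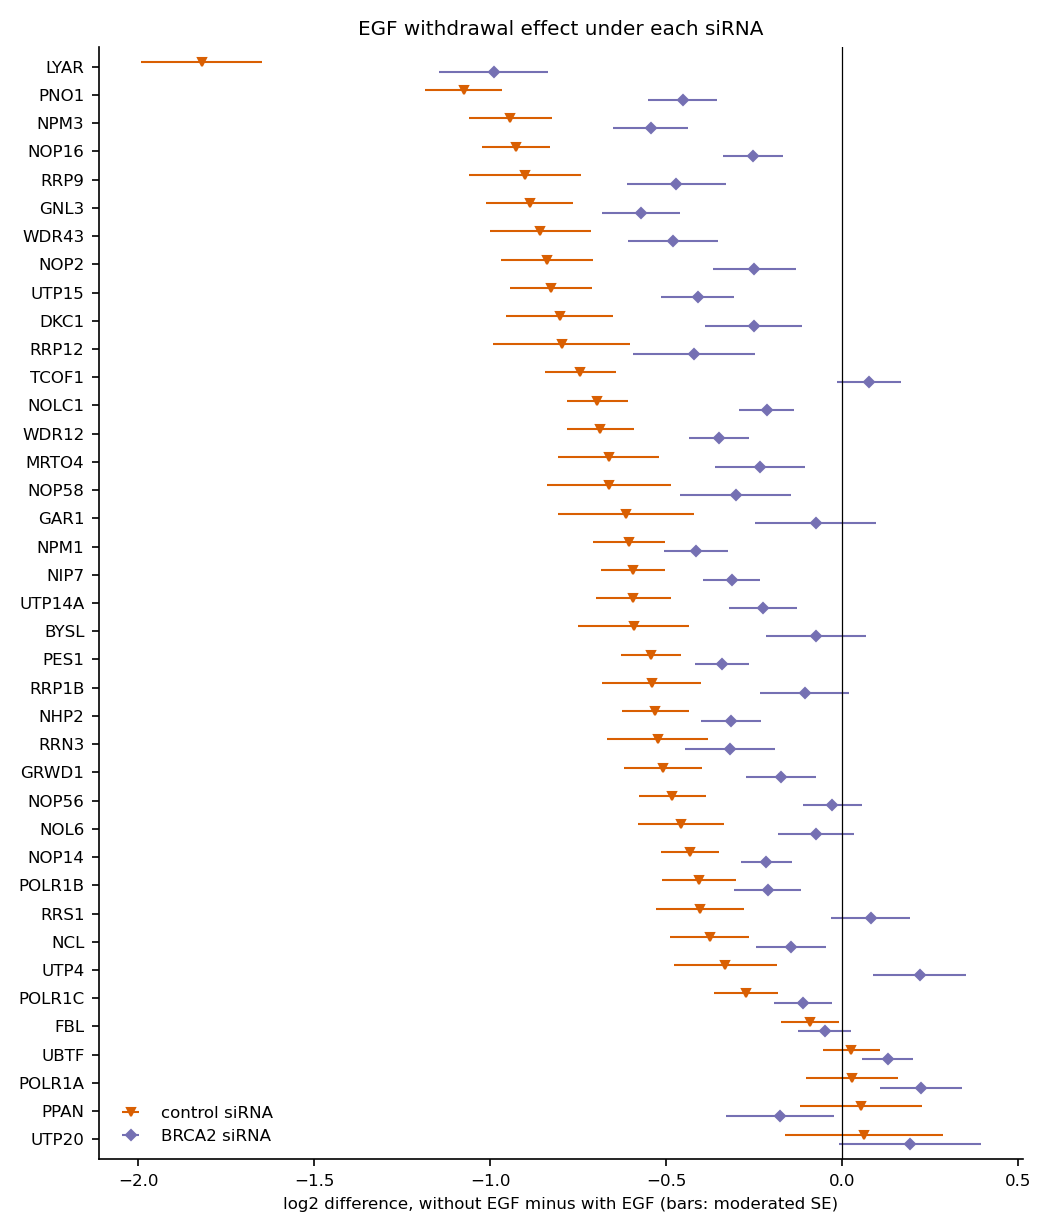
Log2 difference between libraries without and with EGF (x axis, bars: standard error from the limma fit) for the 39 ribosome biogenesis genes, with control siRNA (orange triangles) and with BRCA2 siRNA (purple diamonds). Genes are ordered by the difference with control siRNA, and the purple point lies to the right of the orange one in 38 of the 39 genes, PPAN being the exception.

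The third comparison set the libraries labelled BRCA2 siRNA against control siRNA in medium with EGF. No ribosome biogenesis gene was called in either direction by limma, and none had an unadjusted p under 0.05. Among all genes tested, 1 gene (0.00557%) was called, lower, and 508 had an unadjusted p under 0.05. Differences over the 39 genes ran from -0.09 to 0.24 with a median of 0.04, and the bounds of their 95% intervals from -0.47 to 0.59. A 2-fold difference in either direction therefore lay outside the interval of every one of these genes. PPAN was the gene with 0.24, with log2 values of 5.58, 5.74 and 5.70 against 5.40, 5.51 and 5.38, and it alone had groups that did not overlap (2.51% of all genes tested were apart in that direction and 3.38% in the other).

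Without EGF the libraries labelled BRCA2 siRNA had higher values. The comparison uses the same 2 control libraries without EGF as the first one, so these results are not independent. Of the 39 genes 26 were called higher and none lower, against 11.2% of all genes tested called higher and 9.36% lower. The median difference was 0.39 over the 39 genes and 0.01 over all genes tested, and the groups were apart in 38 genes (33.2% of all genes tested), PPAN being the exception. Within replicates A and C, the only letters present in both groups, all 39 genes were higher, with medians of 0.48 and 0.25. Of all genes tested, 49% and 47.5% were lower within these replicates. In the fit of the 11742 more highly expressed genes 17.7% were called higher and 8.86% lower, with a median of 0.08. That background of higher values was above the one over all genes tested.

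LYAR had log2 values of 11.60, 11.48 and 11.21 against 10.51 and 10.51 with control siRNA (0.92 ± 0.17, limma adjusted p = 0.00554). TCOF1 had 12.83, 12.60 and 12.49 against 11.86 and 11.89 (0.77 ± 0.10, limma adjusted p = 0.00164). PNO1 had 10.45, 10.36 and 10.28 against 9.72 and 9.69 (0.66 ± 0.11, limma adjusted p = 0.0034). In each of these genes the lowest library labelled BRCA2 siRNA was above both control libraries. GAR1 had 7.85, 7.78 and 7.48 against 6.77 and 7.28, a wider spread for a difference of 0.68 ± 0.19. NOP16 (0.59), RRS1 (0.58), MRTO4 (0.56), RRP1B (0.55), NOP2 (0.52), DKC1 (0.52), BYSL (0.52), NOLC1 (0.50) and NOP56 (0.49) were also called higher.

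By role the calls were 1 of 3 box C/D proteins, 3 of 3 box H/ACA proteins, 8 of 11 small subunit factors, 9 of 11 large subunit factors, 4 of 5 phosphoproteins and chaperones and 1 of 6 RNA polymerase I genes. GNL3 and NPM1, which fell clearly on withdrawal with either siRNA, differed by 0.26 ± 0.12 and 0.31 ± 0.10 and were not called (limma adjusted p = 0.156 and 0.0513). In the rest of the pathway 47 of 128 genes rose and none fell, with a median of 0.29. Among the 6 genes of the MYC network tested, MXI1 (-0.66) and MXD4 (-0.41) fell. The others were not called, with differences of -0.30 in MNT, 0.07 in MYC, 0.24 in MAX and 0.47 in MXD1. The groups were apart and lower in MNT, and apart and higher in MAX and MXD1. Of the 17945 genes tested, 5210 were apart and lower and 5961 apart and higher. The count of 26 went to 3 without replicate A and to 12 without replicate C of the control libraries, where 1.37% and 3.51% of all genes tested were called higher. It went to 8 without either replicate A or replicate B of the BRCA2 siRNA libraries, where 4.78% and 5.89% were, and to 0 with replicates B and C alone, where no gene of the table was called. It was 13 after quantile normalization, where 9.89% of all genes tested were called higher.

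**Figure D5:**
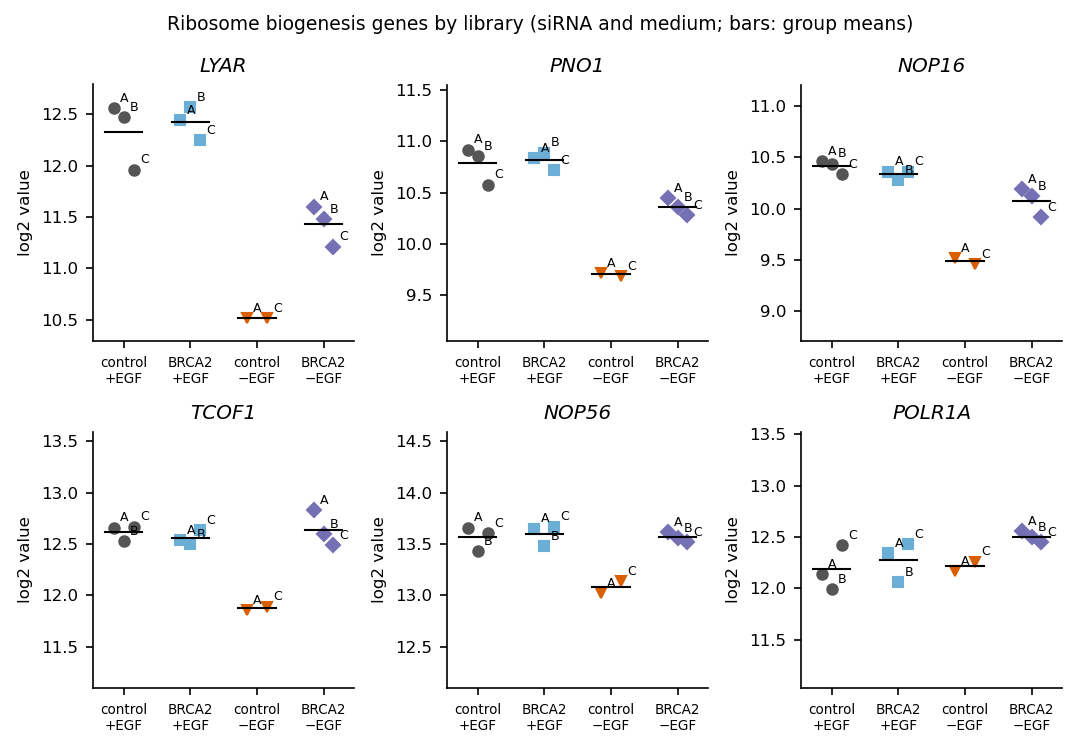
Deposited log2 values (y axis, each axis covering the same log2 span around that gene) of LYAR, PNO1, NOP16, TCOF1, NOP56 and POLR1A in each library, by siRNA and medium (x axis), with replicate letters and bars at group means. In the first 5 genes both libraries with control siRNA and no EGF lie below all others, while POLR1A overlaps between media with control siRNA.

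The last comparison tested whether the withdrawal effect differed between siRNAs, as an interaction term. It was positive, meaning a smaller fall or a rise with BRCA2 siRNA, in 38 of 39 genes, with a median of 0.37 beside 0.02 over all genes tested. The unadjusted limma p was under 0.05 in 20 of the 39 genes, beside 3981 of the 17945 genes tested. Of the 39 genes 3 were called (1.38% of all genes tested were called in that direction and 1.93% in the other). TCOF1 had the largest of the 3, at 0.82 ± 0.14 (limma adjusted p = 0.0235): it fell by 0.74 with control siRNA and differed by 0.08 with BRCA2 siRNA. NOP16 fell by 0.93 with control siRNA and by 0.25 with BRCA2 siRNA, a difference of 0.67 ± 0.13 (limma adjusted p = 0.0291). PNO1 fell by 1.08 and by 0.45, a difference of 0.62 ± 0.15 (limma adjusted p = 0.0468). Over the 11742 more highly expressed genes, fitted alone, the median interaction was 0.09. Of these genes 2.27% were called positive and 2.00% negative.

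For LYAR the interaction was 0.83 ± 0.23 and was not called (limma adjusted p = 0.0733), and NOLC1 (0.48 ± 0.12, limma adjusted p = 0.0506) and NOP56 (0.45 ± 0.13, limma adjusted p = 0.0743) were close to the threshold. In the rest of the pathway 4 of 128 genes were called, all positive and all small subunit processome proteins, named here after their values were seen: NOC4L (0.66), RRP36 (0.60), TBL3 (0.60) and IMP4 (0.49). The 3 calls among the ribosome biogenesis genes became 0 without replicate A or C of the control libraries lacking EGF, replicate A of those with EGF, replicate B of the BRCA2 siRNA libraries lacking EGF or replicate C of those with EGF. In those fits at most 1 of all genes tested was called in either direction. They became 1 without replicate A of the BRCA2 siRNA libraries with or without EGF (0.267% and 0.0836% of all genes tested called higher). Without replicate C of the BRCA2 siRNA libraries lacking EGF they became 5 (2.46%). Without replicate C of the control libraries with EGF they became 13 (4.76%). With replicates B and C alone none was called, and the median was 0.21.

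Seen by library, the median of the 39 genes was lowest in the control libraries without EGF. The BRCA2 siRNA libraries without EGF lay between these and the libraries with EGF, but not in the median of every role. The median deviation of the 39 genes from the mean of the control libraries with EGF was 0.09, 0.00 and -0.07 in those libraries, and 0.06, 0.03 and 0.07 with BRCA2 siRNA and EGF. It was -0.12, -0.23 and -0.23 with BRCA2 siRNA and no EGF, and -0.62 and -0.50 with control siRNA and no EGF. Only the last group was well apart. The -0.12 lay close to the -0.07 of a control library with EGF, and the SD between replicates was 0.07. The median over all genes tested stayed between -0.01 and 0.01 in every library. With BRCA2 siRNA and no EGF the median was 0.06, -0.03 and -0.04 over the box C/D proteins and 0.06, -0.08 and -0.07 over the RNA polymerase I genes. In the libraries with EGF these medians ran from -0.05 to 0.11 and from -0.05 to 0.06.

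Replicates of 1 group also differed from each other in some genes. In the control libraries with EGF, replicate B was above replicate C by 0.65 in NOP58, 0.63 in RRP12, 0.60 in RRP9 and 0.51 in LYAR, and below it by 0.92 in UTP20, 0.42 in POLR1A and 0.40 in RRP1B. With BRCA2 siRNA and EGF the same differences were 0.47, 0.53, 0.26, 0.33, -0.54, -0.36 and -0.36. UTP20 and POLR1A, which did not fall on withdrawal, have the longest coding transcripts of the set in GENCODE 29, at 9025 and 12749 bases beside a median of 2760. The next longest, WDR12, GRWD1 and TCOF1, fell with control siRNA (-0.69, -0.51 and -0.74). UBTF (4997 bases) and UTP4 (4183 bases), also longer than the median, were not called (0.03 and -0.33). FBL and PPAN, which are short (1160 and 1657 bases), were not called either. Across the 39 genes Spearman's rho of transcript length with the withdrawal difference was 0.30 for control siRNA and 0.35 for BRCA2 siRNA, and over 12932 tested genes with a length it was 0.21 and 0.23. With the difference between replicates B and C rho was -0.33 over the 39 genes and -0.13 over the tested genes. These are correlations across genes measured in the same libraries, given as a description, and the part of length in the results was not tested.

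Several of these genes carry snoRNA genes in their introns. GENCODE 29 places 25 inside 7 of the 39 genes, of which 16 were in the table and 10, in 4 hosts, passed the filter. Their log2 values were low, from 3.03 to 5.15. Between the control groups 2 of the 10 were apart and lower without EGF and 1 was apart and higher, beside 33.6% and 32.9% of all genes tested.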

How the data were processed

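Total RNA was depleted of ribosomal RNA with RiboZero and made into libraries with Script-seq v2, per the labels' protocols. The authors deposited 1 normalized log2 value per gene and library, from -2.94 to 20.62. The submitters' processing notes name hg19, TopHat2 2.0.11, DESeq2 and limma with no role or order. The read counter, its strand setting and the transform are not stated in any source used here. In every gene the mean of the 4 replicate A libraries equals that of the 7 replicate B and C libraries (largest gap 7.2e-09), so the values were centred between these sets. The sets hold the groups in unequal numbers, which can move group differences slightly.

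Symbols were matched for 37585 of 40460 genes (92.9%). Genes reaching a linear value of 10 in at least 2 libraries were fitted with limma 3.58.1 in R 4.3.3, as a 4-group model over all 11 libraries with 7 residual degrees of freedom, empirical Bayes moderation with a mean-variance trend and two-sided tests. The centring described above was made before this fit, and its cost is not counted in the 7 degrees of freedom. p-values were adjusted by Benjamini-Hochberg over 17945 genes, with a threshold of 0.05. The procedure was also run on simulated data with independent noise, no replicate effect and no centring. That run checked the size and sign of differences put in, and it is no check of the p-values given here. Whether replicates came from separate cultures is not stated beyond the word biological, so p-values measure the spread between these libraries.

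Genes named were the whole set, and for other lists those with the smallest p on withdrawal with control siRNA. The set and lists were chosen with earlier results of these data known. Of the promoter stretches, LYAR and UTP14A followed a rule, and the others were chosen after the sequences were seen. Alternatives were filters, quantile normalization, a replicate block or a term for replicate A, replicates B and C only, the compared groups only, no trend and leaving out each library.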

Additional observations from a re-analysis of the deposited data

Results flagged for a closer look

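For 3 genes the EGF withdrawal effect differed between siRNAs by a test of the interaction (limma, adjusted over all 17945 genes). Taking the effect under BRCA2 siRNA and subtracting the one under control siRNA gave 0.82 in log2 for TCOF1, 0.67 for NOP16 and 0.62 for PNO1. In all 3 genes the 2 libraries with control siRNA and no EGF were below every other library.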

How the results depend on the processing

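The medians kept their sign under every alternative run, except that the one for BRCA2 siRNA with EGF was 0.00 without replicate C of the control libraries with EGF, and no called gene changed sign. Over 15 pairs of libraries sharing a letter the correlation of deviations from group means was -0.37 to 0.70 (median -0.12), with 2 above 0.1. Both were 0.70, between control and BRCA2 siRNA with EGF in replicates B and C, where the other pairs ran from -0.13 to 0.04. The pairs within replicate A ran from -0.37 to -0.12. The centring of the values removes what the A libraries share, so these pairs cannot show whether that letter pairs libraries. With the letters as a replicate block 33 genes fell with control siRNA and 15 with BRCA2 siRNA (26.3% and 16.2% of all genes tested). In that fit 26 were higher with BRCA2 siRNA without EGF (13.3% of all genes tested). The interaction was called in 6 genes (2.46% of all genes tested in that direction), adding NOP56, NOLC1 and LYAR. With quantile normalization 8 of the 33 genes lower with control siRNA and 4 of the 14 lower with BRCA2 siRNA were no longer called. In that fit 23.8% and 11.1% of all genes tested were called lower. UBTF alone was called higher on each withdrawal, beside 21.7% and 11.4% of all genes tested. With BRCA2 siRNA without EGF 13 genes were higher (9.89% of all genes tested). The medians were -0.40 and -0.11 for withdrawal with control and BRCA2 siRNA, 0.27 for BRCA2 siRNA without EGF and 0.26 for the interaction. With replicates B and C only, 6 genes fell with control siRNA and 0 with BRCA2 siRNA, 0 were higher with BRCA2 siRNA without EGF and 0 in the interaction, with medians of -0.47 for withdrawal with control siRNA, 0.30 for BRCA2 siRNA without EGF and 0.21 for the interaction. That fit has fewer libraries, with 1 in the control group without EGF, which is assumed to vary like the others. Without the filter 17 genes, and without the mean-variance trend 16, were higher with BRCA2 siRNA without EGF. In those fits 3.68% and 9.56% of all genes were called higher. With a term for replicate A no call changed for withdrawal with control siRNA or for the interaction. In that fit 6 of the 26 genes higher with BRCA2 siRNA without EGF were no longer called (9.64% of all genes tested were called higher). Of the 14 genes lower with BRCA2 siRNA on withdrawal 2 were no longer called (11.2% of all genes tested were called lower). The cause of the other shifts was not tested. Leaving out 1 library at a time gave 23 to 34 genes lower with control siRNA, 6 to 19 lower with BRCA2 siRNA, 3 to 29 higher with BRCA2 siRNA without EGF and 0 to 13 in the interaction, with medians of -0.63 to -0.50, -0.27 to -0.18, 0.34 to 0.45 and 0.31 to 0.43, and 0.00 to 0.10 for BRCA2 siRNA with EGF. At the highest counts of these ranges 25.1%, 18.2%, 14.9% and 4.76% of all genes tested were called in the same direction. The shares at the lowest counts are given above. As depth is unknown, counting error could not be given for any value.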
